A study of Mus musculus with 2 samples.

Results

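The miR-130 and miR-301 seed family was examined in small RNA (sRNA) libraries of J1 mouse ES cells. Its members were taken as the 4 annotated hairpins Mir130a, Mir130b, Mir301 and Mir301b, out of 1174 mouse miRNA hairpins used in all. They were set by gene name and not by a cut on any measured value, but earlier results of these data were known when they were chosen. J1 is a mouse embryonic stem cell line, here adapted to gelatin and kept with LIF. One library came from cells treated for 24 h with 1 mM AICAR, a compound that switches on the energy sensor AMPK, and the other from cells given an equal volume of DMSO (0 mM AICAR). With 1 library per condition there is no spread between replicates. Every difference given here has no replicate check and compares these libraries, and each interval is a 95% interval for counting error only.

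MiRNAs are cut from a hairpin precursor, which can give a mature strand from its 5′ arm (5p) and from its 3′ arm (3p). The strand loaded into Argonaute finds its target mRNAs mainly through the seed, bases 2 to 8 counted from its 5′ end, so that miRNAs with the same seed share many of their targets. The 3p strands of this family carry 1 seed. A known target of the family is Pparg, a regulator of fat cell formation.

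The 4 hairpins lie at 3 loci of GRCm38. Mir130a is on the minus strand of chromosome 2 (84741115 to 84741178), where no other gene of that strand contains it, and the nearest gene on that strand, the protein-coding Gm19426, lies 991 bases away. Mir130b (chromosome 16, 17124061 to 17124142) and Mir301b (chromosome 16, 17124400 to 17124496) are neighbours on the minus strand with 257 bases between them, both intronic in 2610318N02Rik. Mir301 is on the plus strand of chromosome 11 (87113004 to 87113089), in an intron of Ska2, which codes for a protein of the spindle and kinetochore. The mature strands of Mir301 are called miR-301a.

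The most abundant tag of each arm among exact matches to its hairpin is printed because the results turn on which arm, and so which seed, was read. Tags are as deposited, 5′ to 3′ with T for U, and bases 2 to 8 are in capitals. The first 4 are the 3p arms, which share their seed, and the last 4 are the 5p arms.
miR-130a-3p: cAGTGCAAtgttaaaagggcat
miR-130b-3p: cAGTGCAAtgatgaaagggcat
miR-301a-3p: cAGTGCAAtagtattgtcaaagcat
miR-301b-3p: cAGTGCAAtggtattgtcaaagcat
miR-130a-5p: gCTCTTTTcacattgtgctact
miR-130b-5p: aCTCTTTCcctgttgcactact
miR-301a-5p: gCTCTGACtttattgcactact
miR-301b-5p: gCTCTGACtaggttgcactact

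Against the RefSeq mature sequences (GRCm38.p6), which matched 7 of the 8 arms by name, 6 of these tags were identical and that of miR-301a-3p was 2 nt longer at its 3′ end. The 3p tags lie at chr2:84741116-84741137, chr16:17124071-17124092, chr11:87113054-87113078 and chr16:17124418-17124442, in the order printed. Position by position from the 5′ end, miR-130a-3p and miR-130b-3p differed by T11A and A13G, and miR-301a-3p and miR-301b-3p by A10G alone over 25 nt. Between a miR-130 and a miR-301 3p tag, 9 to 11 of the first 22 bases differed, all of them after the seed. The 5p arms have other seeds, and only those of miR-301a-5p and miR-301b-5p were the same as each other. No tag that matched 1 of the 4 hairpins also matched another annotated hairpin, so reads could be given to each member without sharing.

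The libraries held 18870345 (DMSO) and 21091226 (AICAR) clean reads of 18 to 44 nt. Reads that matched any miRNA hairpin made up 11.6% of the DMSO and 15.7% of the AICAR library, a ratio of 1.36, and values are given as RPM, reads scaled to 1000000 clean reads, unless hairpin reads are named as the denominator. Of the ES cell markers, 7 hairpins of the miR-290 cluster held 33347 RPM (DMSO) and 57828 RPM (AICAR), and the 4 miR-302 hairpins 15.2 and 5.59 RPM. Marker hairpins of other cell types gave 209 and 208 RPM for fibroblasts (5 hairpins), 278 and 429 RPM for neurons (6), 161 and 205 RPM for muscle (5), 16.5 and 15.8 RPM for blood (3), and 2.91 and 25.4 RPM for the liver hairpin Mir122. Their part in the values below was not tested.

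All tags of the 4 hairpins together held 18517 reads with DMSO and 23397 reads with AICAR (981 and 1109 RPM). The family thus had 0.849% (0.837% to 0.861%, Wilson interval) of the DMSO hairpin reads and 0.706% (0.697% to 0.715%) of the AICAR hairpin reads. By hairpin, the reads were 12164 and 15666 for Mir130a, 4907 and 6189 for Mir130b, 1299 and 1268 for Mir301, and 147 and 274 for Mir301b. Mir301 was the only hairpin of the 4 whose total was lower with AICAR per clean read (fold 0.873, 0.808 to 0.944), and its total is mostly 5p reads. Only 7 and 14 reads of the family lay outside the ends accepted for an arm. The share was thus under 1% in both libraries and lower in the AICAR library beyond counting error.

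**Figure D1:**
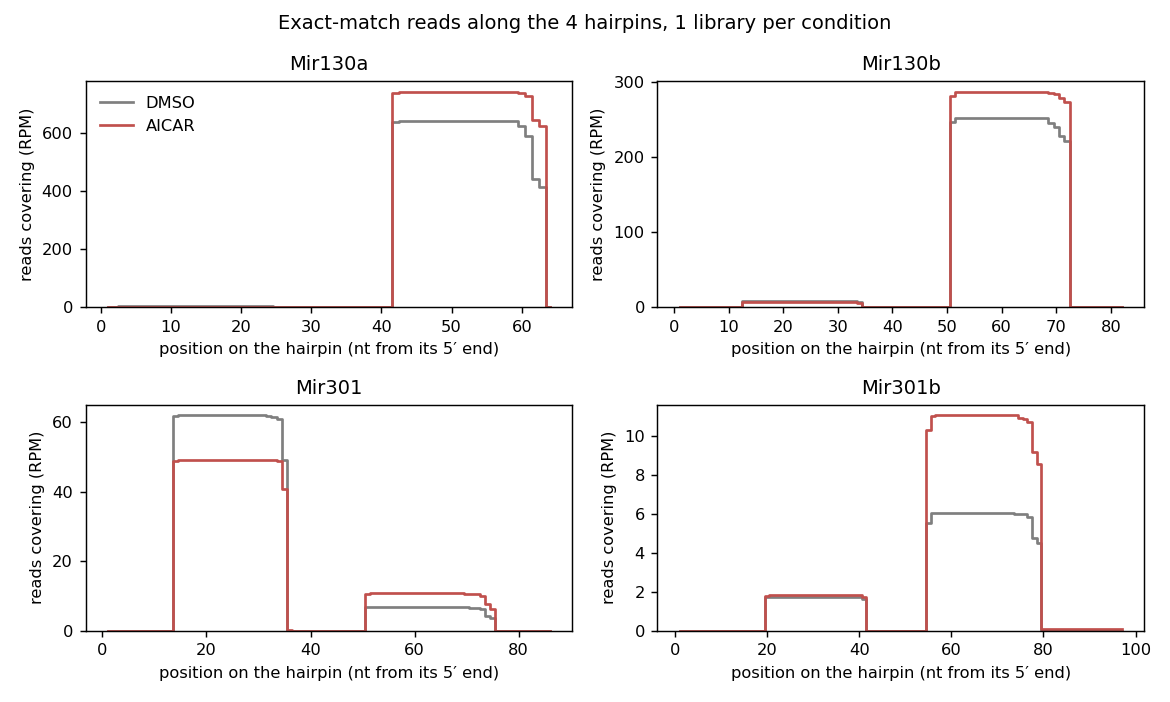
Reads, in RPM, that cover each base (y axis, linear, own scale for each hairpin) along the 4 hairpins (x axis, nt from the hairpin's 5′ end), grey for DMSO and red for AICAR. The 3p arm holds nearly all reads of Mir130a and Mir130b, whereas the 5p arm is the higher one on Mir301 in both libraries.

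The arms of the family spanned a wide range of levels, and miR-130a-3p led. MiR-130a-3p had 12073 reads with DMSO (639.8 RPM) and 15626 with AICAR (741 RPM). MiR-130b-3p had 4755 reads (252 RPM) and 6054 reads (287 RPM). These strands ranked 38th and 63rd in summed level among the 508 arms that reached 1 RPM in at least 1 library, and all 8 arms of the family reached it.

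The miR-301 members were far lower on the seed-bearing arm. MiR-301a-3p had 126 reads with DMSO (6.68 RPM) and 223 with AICAR (10.6 RPM). MiR-301b-3p had 113 reads (5.99 RPM) and 230 reads (10.9 RPM). The counting intervals of both overlapped in each library, 5.56 to 7.95 against 4.94 to 7.20 RPM in the DMSO library and 9.23 to 12.1 against 9.54 to 12.4 RPM in the AICAR library. Exact matches thus did not tell their order, but they leave out most miR-301b-3p reads. With added 3′ ends counted (described below), miR-301b-3p was the higher one, with 20.9 and 33.7 RPM against 9.59 and 14.0 RPM.

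Among the 5p arms, miR-301a-5p had the third highest level of the family in both libraries, with 1170 reads under DMSO (62.0 RPM) and 1039 under AICAR (49.3 RPM). MiR-130b-5p had 150 reads (7.95 RPM) and 133 reads (6.31 RPM). MiR-130a-5p had 90 reads (4.77 RPM) and 39 reads (1.85 RPM), and miR-301b-5p had 33 reads (1.75 RPM) and 39 reads (1.85 RPM). In the DMSO library the intervals of miR-130b-5p (6.73 to 9.33 RPM) and miR-301a-3p overlapped, and in the AICAR library miR-130a-5p and miR-301b-5p had the same count.

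**Figure D2:**
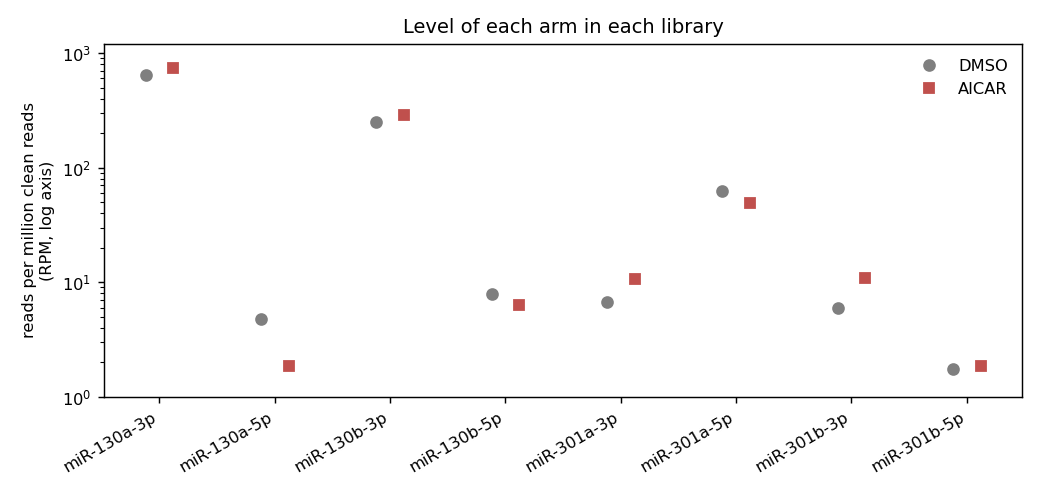
Level of each of the 8 arms in RPM (y axis, log scale) in the DMSO library (grey circles) and the AICAR library (red squares), 1 library each. MiR-130a-3p and miR-130b-3p lie above 250 RPM in both libraries, miR-301a-5p is next, and the other 5 arms stay under 11 RPM.

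The summed seed dose, that is all reads of the 4 hairpins on 3p tags whose bases 2 to 8 are the shared seed, was 16926 reads with DMSO (897 RPM) and 21931 reads with AICAR (1040 RPM). The AICAR value was 1.16 times the DMSO value (1.14 to 1.18). Relative to hairpin reads the same ratio was 0.853 (0.836 to 0.870), so its direction depends on the denominator. The median fold of all 508 arms was 1.10 on clean reads.

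The seed dose was made almost wholly by miR-130a and miR-130b. MiR-130a-3p gave 71.1% of it (70.4% to 71.8%) with DMSO and 70.9% (70.3% to 71.5%) with AICAR, and miR-130b-3p gave 27.5% (26.9% to 28.2%) and 27.1% (26.5% to 27.7%). MiR-301a-3p and miR-301b-3p together gave 1.35% (1.18% to 1.53%) and 1.97% (1.79% to 2.16%), which do not overlap. The miR-301 members thus had a larger but still small share in the AICAR library, counted on exact matches.

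Other annotated hairpins with the same seed on a RefSeq mature strand gave no read. Mir130c, Mir721, Mir6341 and Mir6389 had 0 reads in both libraries, which allows up to 0.159 RPM with DMSO and 0.142 RPM with AICAR (3 reads). The dose of this seed from exact hairpin tags therefore came from the 4 members.

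Between the libraries, all 4 of the 3p arms had a fold above 1 on clean reads and 3 of the 4 5p arms a fold below 1. Of all 508 arms tested, 289 had a fold above 1 and 219 a fold below 1 on the same denominator. The fold change of miR-130a-3p was 1.16 (1.13 to 1.19, log2 0.21) and that of miR-130b-3p was 1.14 (1.10 to 1.18, log2 0.19). MiR-301a-3p had a fold of 1.58 (1.27 to 1.99, log2 0.66) and miR-301b-3p of 1.82 (1.45 to 2.30, log2 0.86). On hairpin reads the miR-130 strands were below 1 (0.852 and 0.838) and the miR-301 strands above it (1.16 and 1.34), although the interval of miR-301a-3p (0.932 to 1.46) then includes 1.

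With a fold of at least 2 or at most 0.5 as the limit, 0 of the 8 arms were past it upward and 1 of the 8 downward. Of all 508 arms, 12% were past it upward and 10% downward, so the count in the family was near this background. The arm past the limit was miR-130a-5p, with a fold of 0.388 (0.259 to 0.570) and 0.285 to 0.418 under the other settings tried. Its percentile among the 508 log2 fold changes was 4.13, whereas that of miR-301b-3p was 84.3 and that of miR-130a-3p was 54.3.

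The other 5p arms moved less. MiR-301a-5p had a fold of 0.795 (0.730 to 0.865), miR-130b-5p of 0.793 (0.623 to 1.01) and miR-301b-5p of 1.06 (0.648 to 1.73). The intervals of the last 2 include 1. For miR-130b-5p this turned on the scaling and on the tag rule. Its interval lay below 1 with TMM scaling (0.741, 0.582 to 0.942), median-ratio scaling (0.723, 0.568 to 0.919) and hairpin reads (0.583, 0.458 to 0.742). It also did so on clean reads with 1 mismatch allowed (0.787, 0.622 to 0.995). The seed shared by miR-301a-5p and miR-301b-5p went from 63.8 to 51.1 RPM, a fold of 0.802 (0.738 to 0.871).

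**Figure D3:**
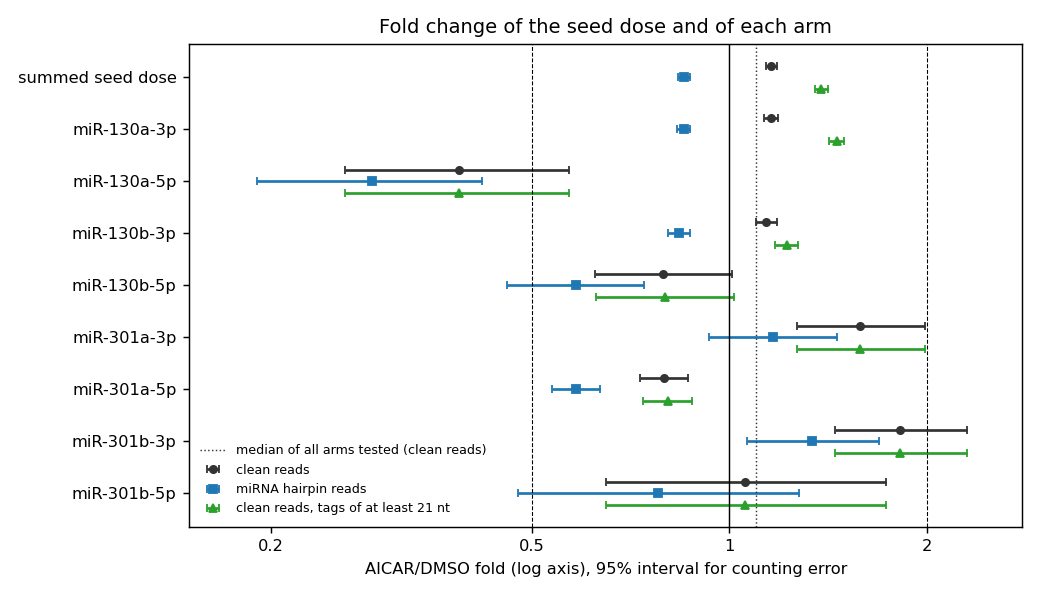
AICAR/DMSO fold (x axis, log scale) of the summed seed dose and of the 8 arms, with 95% intervals for counting error, for clean reads (black circles), miRNA hairpin reads (blue squares) and clean reads with tags of at least 21 nt (green triangles). Solid and dotted vertical lines mark 1 and the median of all arms tested, dashed lines 0.5 and 2, and miR-130a-5p is the only arm whose values lie left of 0.5.

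The library totals cancel when the fold changes of 2 members are divided, so this comparison does not depend on the denominator. All 6 pairs of 3p arms were compared. MiR-130a-3p against miR-130b-3p gave a ratio of folds of 1.02 (0.972 to 1.06), which includes 1. The fold of miR-130a-3p was 0.731 times that of miR-301a-3p (0.582 to 0.915) and 0.636 times that of miR-301b-3p (0.502 to 0.801). That of miR-130b-3p was 0.719 times the first (0.572 to 0.902) and 0.626 times the second (0.493 to 0.790). MiR-301a-3p against miR-301b-3p gave 0.870 (0.627 to 1.20), which includes 1. Both miR-301 strands thus had a larger fold than both miR-130 strands when all exact-match tags were counted. With added 3′ ends counted (described below, chosen after seeing the data), miR-130a-3p gave 0.824 (0.680 to 0.997) to miR-301a-3p and 0.7455 (0.656 to 0.846) to miR-301b-3p. MiR-130b-3p then gave 0.805 (0.663 to 0.976) and 0.7285 (0.639 to 0.829). The neighbours on chromosome 16, Mir130b and Mir301b, were among the pairs that differed. With tags of at least 21 nt only, the ratio of miR-130a-3p to miR-301a-3p was 0.920 (0.732 to 1.15) and to miR-301b-3p 0.800 (0.632 to 1.01), and both intervals include 1. In the same tags miR-130b-3p gave 0.773 (0.614 to 0.969) and 0.672 (0.530 to 0.848), below 1. With the reference tag alone, 3 of these 4 intervals include 1, that of miR-130b-3p to miR-301a-3p (0.751, 0.548 to 1.02) among them, and miR-130b-3p to miR-301b-3p stayed below it (0.629, 0.473 to 0.829). With tags of at least 21 nt the ratio of miR-130a-3p to miR-130b-3p was 1.19 (1.14 to 1.25).

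The arms of Mir301 were used in the reverse order of the other 3 hairpins. On Mir301 the 3p arm was the minor one, with 9.72% of the reads of both arms (8.23% to 11.5%) with DMSO and 17.7% (15.7% to 19.9%) with AICAR. On Mir130a the 5p arm had 0.740% (0.602% to 0.909%) and 0.249% (0.182% to 0.340%). On Mir130b it had 3.06% (2.61% to 3.58%) and 2.15% (1.82% to 2.54%), and on Mir301b 22.6% (16.6% to 30.04%) and 14.5% (10.8% to 19.2%). The share of Mir301b rests on exact matches, which leave out most of its 3p reads (described with the added 3′ ends below). With those ends counted it was 7.73% (5.56% to 10.7%) and 5.33% (3.94% to 7.18%), and the 3p share of Mir301 was 12.8% (11.2% to 14.7%) and 21.3% (19.2% to 23.5%). Of 321 hairpins with at least 100 reads over both arms and libraries, 151 had more 5p than 3p reads.

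In each hairpin the fold of the 3p arm was larger than that of the 5p arm, beyond counting error in 3 of the 4. The ratio of the 3p fold to the 5p fold was 2.99 (2.03 to 4.47) for Mir130a, 1.44 (1.13 to 1.83) for Mir130b, 1.99 (1.57 to 2.54) for Mir301 and 1.72 (0.991 to 2.97) for Mir301b, the last of which includes 1. Over the 153 hairpins with at least 30 reads of each arm in each library, the median of this ratio was 0.951, and 72 of them (47.1%) had the higher fold on the 3p arm. Whether the family differs from these hairpins in this respect was not tested.

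The length of the miR-130 tags differed between the libraries. The 22 nt tag held 64.6% of the miR-130a-3p reads with DMSO and 83.7% with AICAR, and 22.7% and 11.1% lay on a 20 nt tag that lacks its last 2 bases. The 22 nt tag had 7795 and 13084 reads, a fold of 1.502 (1.46 to 1.54). The 20 nt tag had 2743 and 1741 reads, a fold of 0.568 (0.534 to 0.603), and the 18 nt tag 331 and 89 reads, a fold of 0.241 (0.188 to 0.305). Isoforms of the same strand thus lay on opposite sides of 1.

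MiR-130b-3p showed the same order with fewer short tags. Its 22 nt tag went from 4087 to 5635 reads (fold 1.23, 1.18 to 1.28) and its 18 nt tag from 118 to 20 reads (fold 0.152, 0.0894 to 0.245). Tags under 21 nt made up 31.1% of miR-130a-3p with DMSO and 13.2% with AICAR, and 9.46% and 2.76% of miR-130b-3p. Short tags were less frequent in the AICAR library in general, with 9.49% and 3.81% of all hairpin reads and a lower share in 250 of 293 arms with at least 100 reads in each library, whose median shares were 4.82% and 2.45%. Of those arms, 44 had a larger DMSO share of short tags than miR-130a-3p. With tags of at least 21 nt, the folds of the miR-130 strands were 1.46 (1.42 to 1.498) and 1.22 (1.18 to 1.27), and the summed seed dose was 1.38 (1.35 to 1.41).

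The miR-301 3p strands were longer. The limit on 3′ ends leaves out those of their tags under 21 nt that have the reference 5′ end. Of the reads counted, 0% were under 21 nt on both strands in both libraries. All reads outside the accepted ends, of any length, were 3 (DMSO) and 6 (AICAR) on Mir301 and 1 and 5 on Mir301b. The 25 nt tag held 53.2% (DMSO) and 55.2% (AICAR) of miR-301a-3p, and the 23 nt tag, which is the RefSeq mature sequence, 31.0% and 20.6%. For miR-301b-3p the 25 nt tag held 69.0% and 74.3%.

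**Figure D4:**
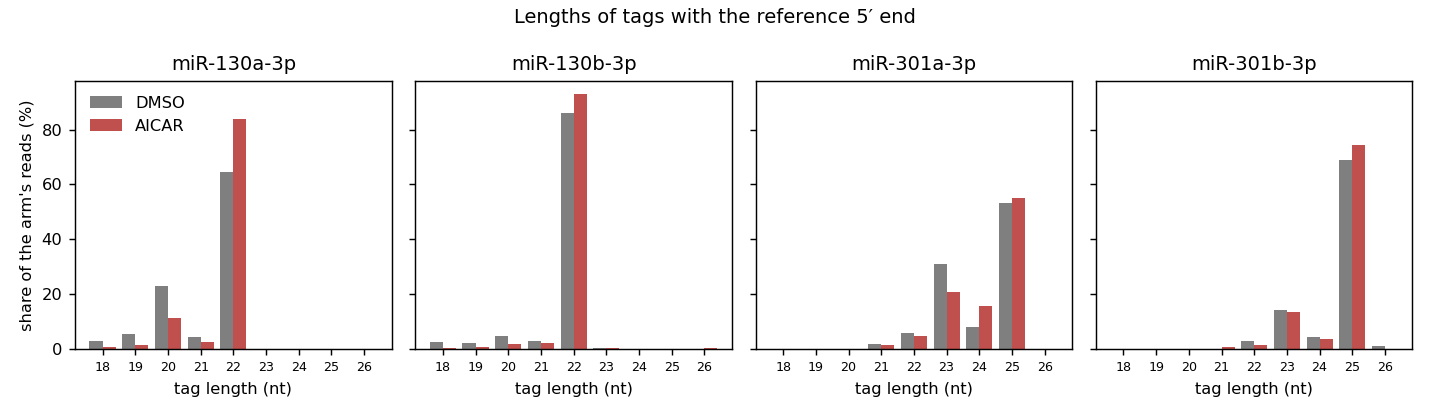
Share of each 3p arm's reads (y axis, percent) by tag length (x axis, nt) for tags with the reference 5′ end, grey for DMSO and red for AICAR. The miR-130 strands peak at 22 nt with shorter tags that are more frequent in the DMSO library, and the miR-301 strands peak at 25 nt.

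The 5′ ends, which set the seed, were nearly uniform for most members. Of miR-130a-3p reads, 99.7% with DMSO and 99.6% with AICAR began at the reference base. For miR-130b-3p, 91 and 113 reads (1.91% and 1.87%) began 1 base later, which moves the seed by 1 base, and for miR-301b-3p 10 and 15 reads (8.85% and 6.52%) did. The share of miR-130b-3p differed little between the libraries, and that of miR-301b-3p rests on too few reads to compare them. Both are shares of exact matches.

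Bases that the hairpin does not encode were frequent at the 3′ end of the miR-301 strands. For the count of such tags, those with the reference 5′ end that matched the hairpin except for 1 to 3 bases at their 3′ end, and that matched no annotated hairpin, were added. They carry the same seed but are left out by a match without mismatch. Terminal nucleotidyl transferases are known to add U or A to miRNA ends. The leading tag of this kind of miR-301b-3p and of miR-130a-3p is shown, with the base the hairpin does not encode in capitals.
miR-301b-3p with an added T: cagtgcaatggtattgtcaaagcatT
miR-130a-3p ending in C: cagtgcaatgttaaaagggcaC

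The first was the most abundant of all miR-301b-3p tags, with 233 reads under DMSO and 418 under AICAR, against 78 and 171 for the most abundant encoded tag. In total 71.3% (66.7% to 75.6%) of the miR-301b-3p reads of the DMSO and 67.6% (64.1% to 70.9%) of those of the AICAR library ended in such bases, and 60.9% and 60.8% in T alone. For miR-301a-3p the shares were 30.4% (24.2% to 37.4%) and 24.4% (19.9% to 29.6%), mostly T (24.3% and 18.3%). The intervals of the libraries overlapped for both.

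The miR-130 strands had fewer such ends, and T was not their main base. They made up 9.63% (9.14% to 10.1%) and 12.9% (12.5% to 13.4%) of miR-130a-3p, and 11.4% (10.6% to 12.3%) and 14.1% (13.3% to 14.9%) of miR-130b-3p, higher in the AICAR library beyond counting error. These are shares of all reads of the arm, among them tags under 21 nt, which were less frequent in the AICAR library. The part of the short tags in this rise was not tested. On miR-130b-3p, A (5.27% and 6.43%) and T (5.07% and 6.33%) were about equal. On miR-130a-3p, C (3.26% and 4.93%) was close in share to A (3.50% and 4.12%), almost all of it on the second tag printed above (429 and 867 reads), where the C stands in place of the last encoded base. MiR-130b-3p had 2 and 5 reads that ended in a C of this kind.

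Over 379 arms with at least 100 reads, the median share of such ends was 7.62%, and 8 arms had a larger share than the 68.9% of miR-301b-3p over both libraries. Single substitutions inside the tags of miR-130a-3p and miR-130b-3p were read at 0.0200% to 0.0268% per position. MiR-301a-3p had 0 such reads and miR-301b-3p 1 in each library. This rate is for positions inside the tag and is not the same measure as a share of 3′ ends. Whether read errors add to these ends was not tested. It was also not tested whether these ends are bases added to the RNA or differences between the J1 genome and the reference. The encoded 22 nt tag of miR-130a-3p had 7795 and 13084 reads, against 429 and 867 for the tag ending in C. On miR-130b-3p the encoded 22 nt tag was followed by T (246 and 410 reads) or by A (202 and 343 reads).

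Counting these ends separated the levels of the miR-301 members. MiR-301b-3p then had 20.9 RPM with DMSO and 33.7 RPM with AICAR (fold 1.61, 1.42 to 1.83), against 9.59 and 14.0 RPM for miR-301a-3p (fold 1.46, 1.21 to 1.76). The summed seed dose became 1015 and 1223 RPM (fold 1.205, 1.18 to 1.23). The part of it from both miR-301 strands became 2.94% (2.71% to 3.19%) and 3.81% (3.58% to 4.05%), about 2 times the part from exact matches.

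**Figure D5:**
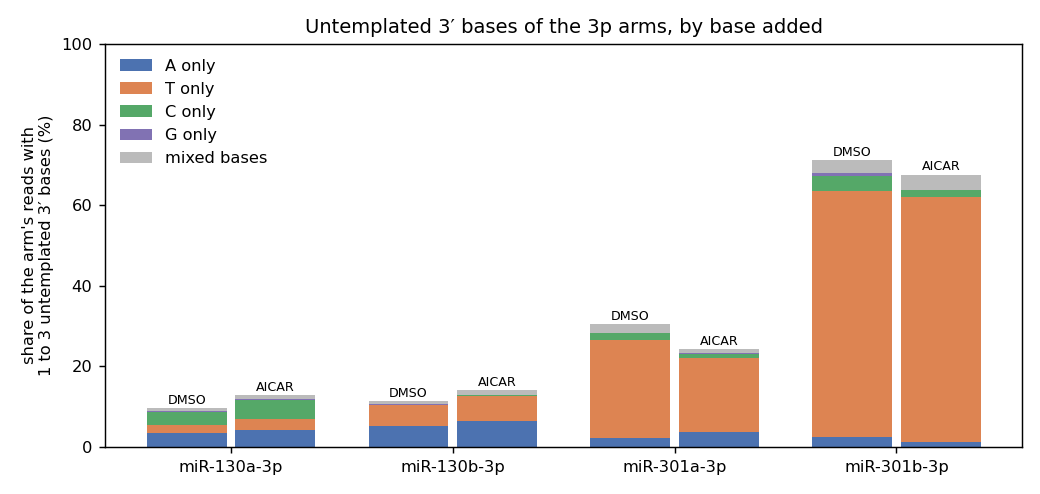
Share of each 3p arm's reads (y axis, percent) that end in 1 to 3 bases the hairpin does not encode, for the DMSO (left bar) and AICAR (right bar) library, stacked by the base added. T makes up most of the large share of miR-301b-3p, and the miR-130 strands stay under 15%.

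MiRNAs whose seed overlaps that of the family with a shift of 1 base can share 6 bases of a target site with it. MiR-148a-3p, miR-148b-3p and miR-152-3p have the seed CAGTGCA, and miR-19a-3p and miR-19b-3p have GTGCAAA. MiR-148a-3p had 650 and 707 reads (fold 0.973, 0.874 to 1.08), miR-148b-3p 1455 and 1374 (0.845, 0.784 to 0.910) and miR-152-3p 1484 and 1913 (1.15, 1.08 to 1.24). MiR-19b-3p had 927 and 1252 reads (1.21, 1.11 to 1.32) and miR-19a-3p 24 and 43 (1.60, 0.951 to 2.76). None of the 5 was past the fold limit, against 12% upward and 10% downward of all 508 arms, and with 5 arms this count says little about them. Each had fewer reads than miR-130b-3p in both libraries.

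Of 91 arms outside the family with at least 100 RPM in both libraries, 12 had a log2 fold change within 0.1 of that of the summed seed dose (0.21). The nearest were miR-320-3p (3849 and 4408 RPM, log2 0.20), miR-21a-5p (556 and 636 RPM, log2 0.19) and miR-185-5p (964 and 1141 RPM, log2 0.24). With 2 libraries this likeness rests on a single fold change.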

How the data were processed

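The authors selected RNA of 18 to 30 nt from total RNA, ligated adaptors, amplified and sequenced it, removed low-quality and contaminant reads and deposited the count of clean reads of each distinct tag, without normalization or alignment (build mm9 is named in the submitters' processing notes). The control sample is titled J1_U and labelled DMSO. Here tags were matched without mismatch to the 1174 miRNA hairpins of GENCODE vM21 (GRCm38) whose symbol starts with Mir. A tag centred in the 5′ or the 3′ part of its hairpin belonged to that arm, and the most abundant tag of an arm was its reference. A tag was counted when it began within 2 nt and ended within 4 nt of it, and copies with the same reference were 1 arm. Counts were divided by clean reads. Fold intervals are exact binomial, ratios of folds exact conditional, levels exact Poisson and shares Wilson, at 95%. PCR reads are not independent molecules, and ligation preferences were not corrected, so levels of different miRNAs are compared with that limit. Members, lists and named arms (every family arm, other hairpins whose leading tag has its seed, of which there were 0, 5 arms with a shifted seed and the 3 nearest in fold change) were chosen with earlier results of these data known. On simulated counts 200 of 200 arms with a 4-fold change, among 508, were past the limit in the right direction. This checks the counting only, since the change was well past the limit and was placed on the reference tags. Isoforms, added 3′ ends, smaller folds and spread between replicates were not simulated. Python 3.11.15, numpy 2.4.6, scipy 1.17.1, matplotlib 3.10.9, R 4.3.3 and edgeR 4.0.16 (TMM only) were used. Alternatives were other denominators, tag rules and filters.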

Additional observations from a re-analysis of the deposited data

Results flagged for a closer look

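Tags that carry the letters of the seed at bases 2 to 8 but match none of the 4 hairpins, with or without added 3′ bases or 1 mismatch, had 79 reads with DMSO and 668 with AICAR. Most of the AICAR reads, but not of the DMSO reads, were on 12 of these 127 tags that share their first 15 bases, with 29 reads under DMSO (1.54 RPM) and 541 under AICAR (25.7 RPM) and a fold of 16.7 (11.5 to 25.2). They were singled out because no comparison of the hairpins uses them and the AICAR library held far more of them. They matched no annotated miRNA hairpin, and their most abundant tag, of 23 nt, matched 0 of the GENCODE transcripts. They were not added to the seed dose.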

How the results depend on the processing

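The seed dose and the miR-130 strands depended on the denominator and on tag length. Relative to hairpin reads, the ratio of the seed dose was 0.853, and the folds were 0.852 for miR-130a-3p, 0.838 for miR-130b-3p, 1.16 for miR-301a-3p and 1.34 for miR-301b-3p. With TMM the seed dose, miR-130a-3p and miR-130b-3p had 1.083, 1.082 and 1.064, and with median-ratio scaling 1.056, 1.055 and 1.038, where the interval of miR-130b-3p (0.999 to 1.08) includes 1. With only the reference tag they had 1.41, 1.502 and 1.23, with tags of at least 21 nt 1.38, 1.46 and 1.22. The seed dose and miR-130a-3p had 1.199 and 1.197 with 1 mismatch, and 1.205 and 1.202 with added 3′ bases. The ratio of miR-130a-3p to miR-130b-3p was 1.22 with the reference tag only and 1.19 with tags of at least 21 nt, which gave 0.920 for miR-130a-3p to miR-301a-3p and 1.07% for the 5p share of Mir130a in the DMSO library. Counting added 3′ bases was an alternative chosen after seeing the data for the arm shares and for the ratios of folds. With it the 5p share of Mir301b was 7.73% and 5.33% and the 3p share of Mir301 12.8% and 21.3%. The causes of these shifts were not tested.

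Of all arms, 61 were past the fold upward and 51 downward. These counts were 23 and 25 with at least 10 RPM, 139 and 119 with no minimum, and 24 and 112 on hairpin reads. With tags of at least 21 nt, 72 were past it upward and 33 downward. The fold of miR-130a-5p stayed at most 0.5 under each alternative run. No paired analysis was possible because there is 1 library per condition, and for the same reason no library could be left out. Depth limits the arms with the fewest reads most, miR-301b-5p and miR-130a-5p.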
